A study of Mus musculus with 32 samples.

Results

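De novo lipogenesis is the synthesis of fatty acids from glucose-derived carbon. Citrate exported from mitochondria is split by ATP citrate lyase (Acly) into cytosolic acetyl-CoA, acetyl-CoA carboxylase (Acaca) makes malonyl-CoA, and fatty acid synthase (Fasn) joins these units into palmitate, using NADPH that malic enzyme (Me1) helps to supply. Palmitate is elongated by Elovl6 and desaturated by stearoyl-CoA desaturases (Scd1, Scd2), Thrsp is a small protein that promotes lipogenesis, and the transcription factors ChREBP (Mlxipl) and SREBP-1 (Srebf1) are known to drive these genes in response to carbohydrate and insulin. Brown adipose tissue, which burns fatty acids for heat, is known for strong expression of this pathway.

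The 10 genes were taken by symbol from a table of 50686 genes, and all 10 were among the 15505 genes that passed the filter on low counts. The table held interscapular brown adipose tissue (iBAT) of male C57BL/6J mice, 10 weeks old, with free access to chow, killed by CO2 inhalation and kept under a light:dark cycle below thermoneutrality, with no treatment and no genetic change in any group. The 8 groups differed in time of tissue collection alone: Zeitgeber time (ZT) 0, 3, 6, 9, 12, 15, 18 and 21, in hours after lights on, with lights off at ZT12, and 4 mice at each time. Each mouse gave 1 library, with total counts between 16300770 and 18254659. Lane 2 of the flow cell carried ZT0, ZT3 and ZT6, lane 3 carried ZT9, ZT12 and ZT15, and lane 4 carried ZT18 and ZT21, so that time and lane cannot be told apart between lanes.

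Markers of brown adipocytes were abundant in every library (11 of 11 genes in the table, summed level 10563 to 16696 in CPM, counts scaled to a common library total), and none was at 0 throughout. Of these, Fabp4 (mean 6049 CPM), Plin1 (1065), Adipoq (827) and Pparg (230) are also expressed by white adipocytes, and Ucp1 was at 2209 CPM. The sum therefore does not separate brown from white adipocytes. Markers of skeletal muscle, of which 9 of 9 were found and none was at 0 throughout, summed to between 3.53 and 5740 CPM. In 8 libraries the sum was over 5 times the median of 386 CPM (ZT0 replicates 3 and 4, ZT3 replicate 2, ZT12 replicate 2, ZT15 replicates 1 and 3, ZT18 replicate 4 and ZT21 replicate 3). These 8 are called the libraries with muscle transcripts below, but others held them too, up to 1906 CPM in replicate 1 of ZT21. In bulk tissue, fewer cells of a type and less RNA per cell cannot be told apart.

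Promoter sequences came from the promoter set used here (RefSeq, GRCm38.p6). It held 12 for 8 members, because some have several start sites, and no entry for Scd1 and Scd2. Those of Acly, Acaca, Fasn and Elovl6 are shown as the successive steps from citrate to long-chain fatty acids, that of Thrsp for its CCAAT matches, and both of Mlxipl because its gene count sums transcripts from 2 starts. Each run holds 250 bases before and 50 bases after the start, 5′ to 3′ on the strand of the gene. Capitals mark matches on either strand to CACGTG (the E-box), to TCACNCCAC (a core of the sterol regulatory element), to CCAAT (bound by NF-Y) and to GGGCGG (bound by Sp1).
Fasn, chr11:120824498-120824797, minus strand: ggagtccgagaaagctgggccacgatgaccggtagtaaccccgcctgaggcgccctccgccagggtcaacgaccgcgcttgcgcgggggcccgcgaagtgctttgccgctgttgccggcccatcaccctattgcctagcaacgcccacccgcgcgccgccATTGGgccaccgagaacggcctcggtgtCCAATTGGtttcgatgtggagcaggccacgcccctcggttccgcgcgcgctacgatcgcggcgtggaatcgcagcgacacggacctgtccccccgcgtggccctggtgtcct
Acly, chr11:100527951-100528250, minus strand: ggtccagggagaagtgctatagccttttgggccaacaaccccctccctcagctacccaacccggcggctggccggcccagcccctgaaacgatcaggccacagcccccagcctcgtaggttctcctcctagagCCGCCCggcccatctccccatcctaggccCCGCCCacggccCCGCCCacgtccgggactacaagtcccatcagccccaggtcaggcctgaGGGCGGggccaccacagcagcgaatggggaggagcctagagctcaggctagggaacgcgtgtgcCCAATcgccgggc
Acaca, chr11:84195188-84195487, plus strand: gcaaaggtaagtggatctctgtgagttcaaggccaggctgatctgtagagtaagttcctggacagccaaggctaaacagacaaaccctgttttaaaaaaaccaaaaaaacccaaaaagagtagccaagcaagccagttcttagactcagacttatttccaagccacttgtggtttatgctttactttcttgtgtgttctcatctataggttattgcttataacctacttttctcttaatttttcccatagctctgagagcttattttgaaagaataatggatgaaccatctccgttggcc
Elovl6, chr3:129532136-129532435, plus strand: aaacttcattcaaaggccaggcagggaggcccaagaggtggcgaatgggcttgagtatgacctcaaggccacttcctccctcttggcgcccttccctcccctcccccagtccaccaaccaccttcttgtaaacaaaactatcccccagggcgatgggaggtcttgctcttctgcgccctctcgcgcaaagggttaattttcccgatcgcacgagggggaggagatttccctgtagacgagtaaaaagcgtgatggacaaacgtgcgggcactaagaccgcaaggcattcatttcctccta
Thrsp, chr7:97417501-97417800, minus strand: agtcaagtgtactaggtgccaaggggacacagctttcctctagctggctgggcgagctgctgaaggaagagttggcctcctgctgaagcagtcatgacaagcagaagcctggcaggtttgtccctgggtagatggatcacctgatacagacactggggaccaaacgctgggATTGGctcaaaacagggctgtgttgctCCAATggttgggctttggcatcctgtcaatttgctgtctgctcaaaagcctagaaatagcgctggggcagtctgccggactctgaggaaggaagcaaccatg
Mlxipl upstream start, chr5:135089640-135089939, plus strand: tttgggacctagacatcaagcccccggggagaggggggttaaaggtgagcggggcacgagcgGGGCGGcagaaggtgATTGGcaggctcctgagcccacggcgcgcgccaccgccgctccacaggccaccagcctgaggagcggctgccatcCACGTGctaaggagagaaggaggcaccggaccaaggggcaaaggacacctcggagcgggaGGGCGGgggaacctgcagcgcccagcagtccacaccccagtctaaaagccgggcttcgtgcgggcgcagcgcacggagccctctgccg
Mlxipl downstream start, chr5:135106641-135106940, plus strand: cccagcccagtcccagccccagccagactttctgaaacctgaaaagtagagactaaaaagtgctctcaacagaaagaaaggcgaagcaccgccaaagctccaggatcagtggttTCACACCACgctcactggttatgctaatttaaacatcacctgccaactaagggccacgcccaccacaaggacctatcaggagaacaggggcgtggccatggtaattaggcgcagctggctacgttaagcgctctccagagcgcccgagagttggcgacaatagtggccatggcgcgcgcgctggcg

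Among these 12 promoters, the E-box was found in the upstream Mlxipl promoter alone, where the match began at position -98 from the start, and 7.15% of all 32851 promoters of this length held one. The sterol element core was found in the downstream Mlxipl promoter alone (position -136), against 1.24% of all promoters. The Fasn promoter held 3 CCAAT matches, of which those at -62 and -59 overlap, the Thrsp promoter held 2, and 37.4% of all promoters had at least 1. The Acly promoter held 4 matches to GGGCGG and 1 to CCAAT, and 35.7% of all promoters had a GGGCGG match. The Acaca and Elovl6 promoters held no match to any of the 4 motifs, and this Acaca start lies inside the annotated gene rather than at its first base. A match is a description of letters and not evidence of binding.

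The members were among the most abundant transcripts of the tissue. Per length (CPM per kilobase of exon), Scd1 was highest at 10616, followed by Fasn at 1931, Thrsp at 1344 and Acly at 738, while the other members lay between 99.8 (Srebf1) and 167 (Me1). The 10 genes took between 2.32% and 12.4% of the counts of a library, with a median of 8.37%. Scd1 and Scd2 are related in sequence. How reads that match both were treated is not given in the sources used here, and their separate values carry that uncertainty.

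Fasn (chromosome 11, 120805846 to 120824547, GRCm38), which makes palmitate, showed how much mice of one time point differed. At ZT15 its level was 2931, 19408, 17314 and 20610 CPM in replicates 1 to 4. At ZT6 it was 35049.7, 32249, 21189.8 and 6034 CPM, and at ZT9 29066, 20136, 4413 and 11624 CPM. At ZT15 replicate 1 lay below the other three, which were close together, whereas at ZT6 and ZT9 the mice were spread over the range, and the highest mouse had 7.03, 5.81 and 6.59 times the level of the lowest. These were the time points of widest spread, and the ratio was 2.13 at ZT0, 1.62 at ZT3, 1.79 at ZT12, 1.49 at ZT18 and 1.49 at ZT21. The time-point means ran from 15066 CPM ± 8204 at ZT15 to 27828 CPM ± 5430 at ZT21 (SD, n = 4 each).

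Any difference between the 8 time points was tested with edgeR's quasi-likelihood test, adjusted over all 15505 genes by the Benjamini-Hochberg method (BH, threshold 0.05). Acly, Scd2, Mlxipl and Srebf1 differed, 4 of 10 members, where 39.8% of all tested genes were called. A 24 h cosine was found for Acly, Scd2, Thrsp, Me1, Mlxipl and Srebf1, 6 of 10 members, where 36.1% of all genes were called. By JTK, a rank test against cosine templates of 21 and 24 h that is the method of the study, 7 members had P under 0.05 (the same 6 and Acaca), against 36.4% of all genes, and 4 passed after BH adjustment, against 27.1%. Fasn, Scd1 and Elovl6 passed none of these tests.

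**Figure D1:**
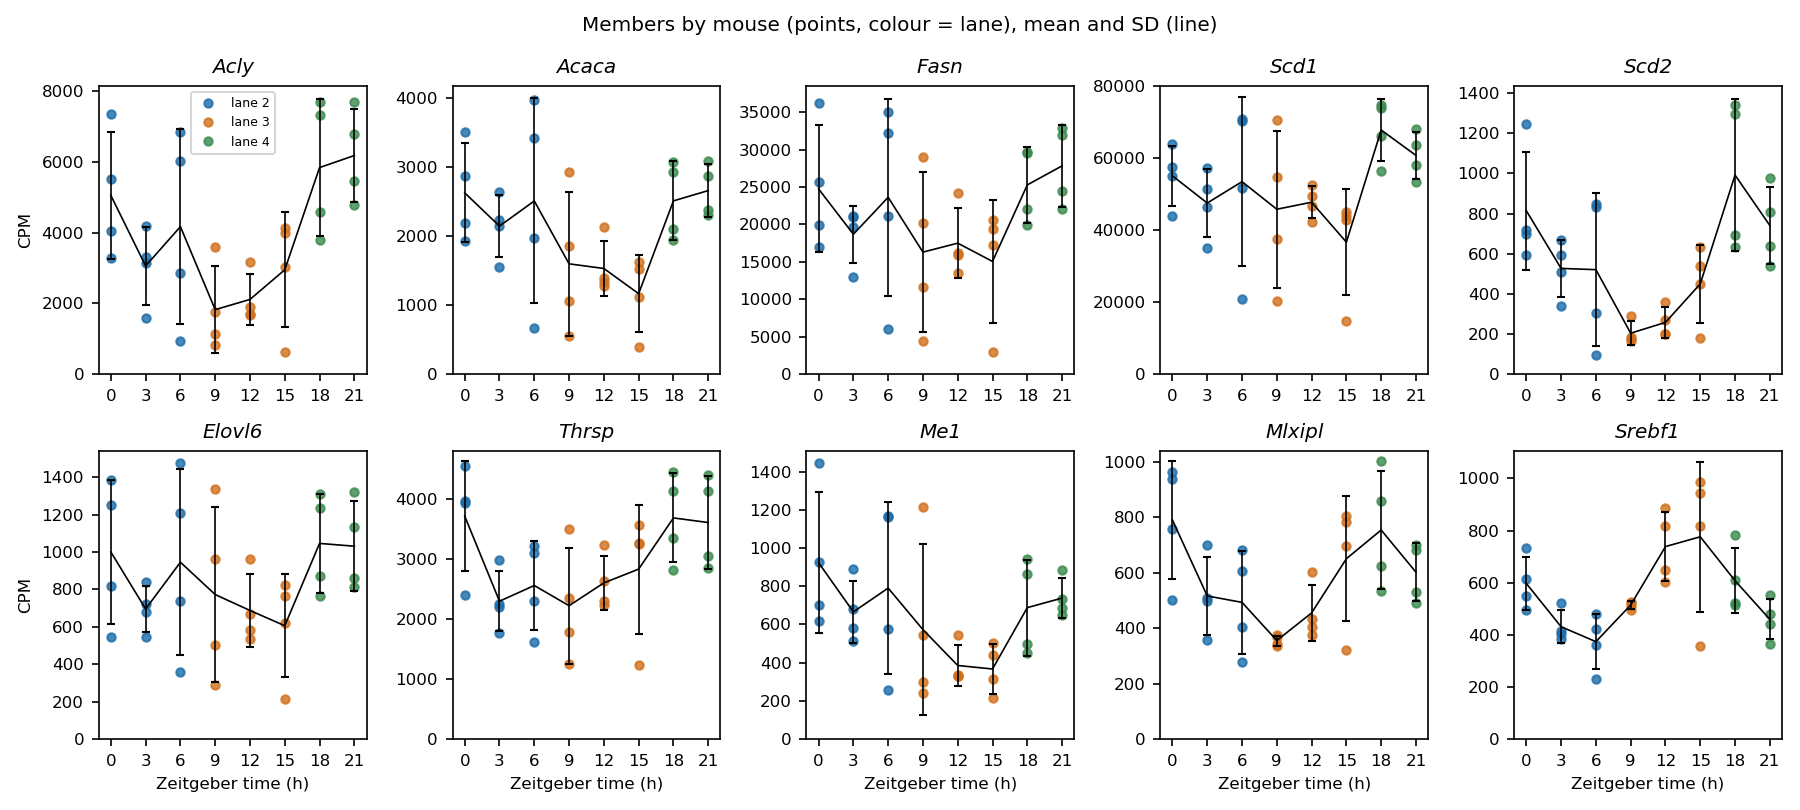
Level of each member (CPM, linear axis from 0) against Zeitgeber time in hours, 1 point per mouse coloured by lane, with the mean and SD of 4 mice as a line with bars. Most enzymes were highest on average between ZT18 and ZT0, Srebf1 was highest at ZT12 and ZT15, and replicate 1 of ZT15 was the lowest mouse of its time point in all 10 members.

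Among the enzymes, Scd2 (chromosome 19, 44293674 to 44306864), which introduces a double bond into saturated fatty acids, changed most over the day. It measured 1342, 1298, 694 and 633 CPM at ZT18 and 292, 184, 175 and 168 CPM at ZT9. The mice of these time points did not overlap, and the means were 992 CPM ± 380 and 204 CPM ± 58.4 (SD, n = 4 each). The fitted amplitude was 0.99 ± 0.17 (SE, log2 scale) with a peak at ZT21.6 ± 0.66 h (edgeR adjusted p = 0.00215 between time points and 0.000505 for the cosine), and both calls held in all 32 fits that each left out a library. The nearby Scd1 (chromosome 19, 44394455 to 44407879) had 67898 CPM ± 8515 at ZT18 and 36732 CPM ± 14639 at ZT15, with an adjusted p of 0.305 for the cosine.

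Acly (chromosome 11, 100476353 to 100528000), the source of cytosolic acetyl-CoA, was lowest at ZT9 and highest at ZT21, where it measured 5454, 6797, 4777 and 7677 CPM. At ZT9 the mice had 3579.7, 1769, 820.1 and 1128 CPM, so the highest mouse of ZT9 was below the lowest of ZT21. Its amplitude was 0.86 ± 0.20 (SE, log2) with a peak at ZT21.7 ± 0.89 h (edgeR adjusted p = 0.00742 for the cosine). The difference between time points, at an adjusted p of 0.0331, was lost in 10 of the 32 fits that left out a library: 3 each at ZT9 (replicates 2 to 4) and ZT12 (replicates 2 to 4), and replicates 1 and 2 of ZT18 and 2 and 4 of ZT21, with the highest adjusted p at 0.0615.

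Acaca (chromosome 11, 84129672 to 84401651), which commits acetyl-CoA to fatty acid synthesis, had 2661 CPM ± 378 at ZT21 and 1168 CPM ± 559 at ZT15 (SD, n = 4 each). Its cosine had an adjusted p of 0.0516 by edgeR, which fell under the threshold in 9 of 32 fits without a library, and it passed by DESeq2 at 0.0243. Elovl6 (chromosome 3, 129532355 to 129638495), which elongates palmitate to stearate, had 1046 CPM ± 266 at ZT18 and 606 CPM ± 275 at ZT15, and these mice overlapped. Neither its difference between time points (adjusted p = 0.466) nor its cosine (0.332) passed.

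Me1 (chromosome 9, 86581371 to 86695953) measured 927, 704, 1444 and 619.6 CPM at ZT0 and 213, 501, 315 and 439.6 CPM at ZT15, and the 2 time points did not overlap. Its fitted peak was at ZT0.34 ± 1.01 h with an amplitude of 0.58 ± 0.15 (SE, log2), and the cosine passed at an adjusted p of 0.0190 (edgeR) but not without replicate 3 of ZT0 (0.0512), nor without the 8 libraries with muscle transcripts (0.168). Thrsp (chromosome 7, 97412938 to 97417730) peaked at ZT20.4 ± 1.08 h with an amplitude of 0.38 ± 0.11 (adjusted p = 0.0137), and its mean was 3717 CPM ± 918 at ZT0 and 2224 CPM ± 965 at ZT9.

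Of the 2 regulators, Srebf1 had its fitted peak early in the dark phase and Mlxipl late in it, within the SE of the peak of Thrsp. Whether peak times differ was not tested. Srebf1 (chromosome 11, 60199089 to 60222581), whose gene count sums the SREBP-1a and SREBP-1c transcripts, measured 357, 818, 944 and 985 CPM at ZT15. At ZT6 it measured 424, 479, 360.0 and 231 CPM. Apart from replicate 1 of ZT15, all mice of ZT15 lay above those of ZT6. Its peak was at ZT15.3 ± 1.00 h and its amplitude 0.37 ± 0.10 (SE, log2), with adjusted p = 0.00355 between time points and 0.00440 for the cosine (edgeR), and both calls held in all 32 fits without a library.

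Mlxipl (chromosome 5, 135089890 to 135138382), whose count likewise does not separate the alpha and beta forms of ChREBP, was highest at ZT0 with 758, 940.1, 962 and 501 CPM. It was lowest at ZT9, where the mice were close together at 343, 367, 337 and 374 CPM, and below every mouse of ZT0. Its peak was at ZT20.6 ± 0.91 h and its amplitude 0.44 ± 0.11 (SE, log2), with adjusted p = 0.0159 between time points and 0.00367 for the cosine, both kept in all 32 fits. Exons of Mlxipl overlap the opposite-strand gene Gm43500 over 4.24% of their bases, and those of Srebf1 overlap Rai1 over 1.93%, and whether the counting used strand is not given in the sources used here.

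**Figure D2:**
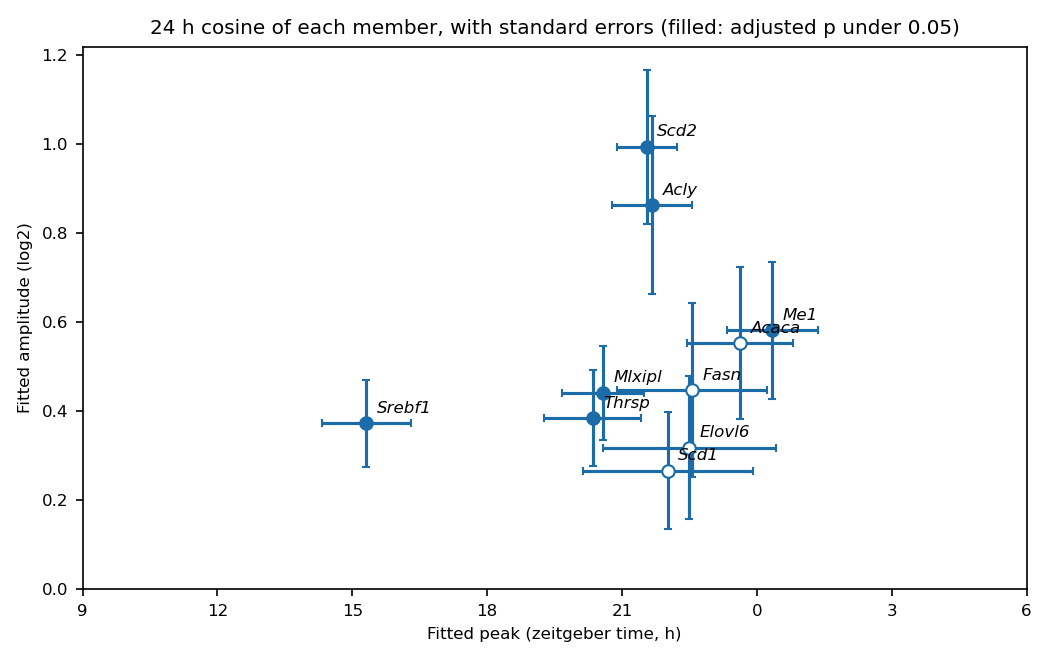
Amplitude of the fitted 24 h cosine (log2 scale) against its peak (Zeitgeber time in hours) for each member, with standard errors as bars and filled points where the edgeR adjusted p was under 0.05. Scd2 and Acly had the largest amplitudes (0.99 and 0.86), and the fitted peak was at ZT15.3 for Srebf1 and between ZT20.4 and ZT0.34 for the other members.

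When the 8 time points were ordered by mean, every one of the 7 neighbouring pairs overlapped between mice in 9 members, and in Mlxipl 6 of 7 did, which the ordering itself favours. Of all 28 pairs of time points, those without overlap numbered 8 for Scd2, 7 for Acly and Srebf1, 5 for Me1, 4 for Acaca, Scd1 and Mlxipl, 2 for Fasn and none for Elovl6 and Thrsp. The median over the members was 4 pairs, against 3 over all 15505 genes tested. The median amplitude of the members was 0.44, against 0.14 for all genes tested. A fitted amplitude is never negative and grows with the spread between mice. Its median SE was 0.16 over the members, against 0.056 over all genes tested. The median share of the variance lying between time points was 38.2%, against 41.1% for all genes tested.

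Time points 12 h apart were contrasted, each pair on different lanes. At ZT12 against ZT0, 3 members were lower (Scd2, Me1 and Mlxipl), where 15.9% of all genes were called in either direction. Scd2 fell by 1.66 ± 0.45 (SE, log2, adjusted p = 0.0121), Me1 by 1.26 ± 0.43 (0.0445) and Mlxipl by 0.80 ± 0.27 (0.0464). By edgeR, 0 members were called without replicate 3 of ZT0 (3 with an unadjusted p under 0.05) and 0 without the 8 libraries with muscle transcripts (2 with an unadjusted p under 0.05), and 1 was called without replicate 1 of ZT0, 2, 3 or 4 of ZT12, or 2 of ZT21. The call of Mlxipl was lost in 16 of 32 fits without a library and that of Me1 in 7. DESeq2 called the same 3 members, and 16.7% of all genes.

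At ZT15 against ZT3 Srebf1 alone of the members was called, and 14.2% of all genes were. It was higher by 0.85 ± 0.23 (SE, log2, adjusted p = 0.0119), and not called without replicate 3 or 4 of ZT15 or when the 8 libraries of these times were fitted alone. At ZT18 against ZT6 Srebf1 was again the called member, higher by 0.70 ± 0.23 (adjusted p = 0.0329), where 16.9% of all genes were called. That call was lost without replicates 3 or 4 of ZT6 or 1 or 2 of ZT18, and with the 8 libraries alone. At ZT21 against ZT9, where 9.62% of all genes were called, Scd2 was higher by 1.86 ± 0.45 (adjusted p = 0.00936) and Acly by 1.76 ± 0.52 (0.0295). Acly was not called without replicates 2, 3 or 4 of ZT9 or 2 or 4 of ZT21, with adjusted p up to 0.0943.

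With lane as an additive factor, a 24 h cosine remained for Scd2 (edgeR adjusted p = 0.0454), Mlxipl (0.00580) and Srebf1 (0.0118), 3 of 10 members, where 17.2% of all genes were called. The call of Scd2 was lost in 20 of 32 fits without a library (highest adjusted p 0.117), and those of Mlxipl and Srebf1 in none. Acly had an adjusted p of 0.474 beside lane, Thrsp 0.221 and Me1 0.640.

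Within a lane no member passed by edgeR. On lane 2, where edgeR called 13.3% of 14866 genes, 2 members had an unadjusted p under 0.05, as did 32.2% of all genes. DESeq2 called 2 members on lane 2 (Thrsp and Srebf1) and 20.1% of all genes. Without replicate 4 of ZT0 edgeR called the same 2 and 22.1% of all genes, and without replicate 2 of ZT6 it called Srebf1 and 10.3%. On lane 3, where edgeR called 1.93% of 14826 genes, 2 members had an unadjusted p under 0.05, as did 16% of all genes. DESeq2 called 2 members on lane 3 (Scd2 and Mlxipl) and 5.59% of all genes, and without replicate 1 of ZT15 edgeR called 3 (Scd2, Mlxipl and Srebf1) and 2.62%. On lane 4, where edgeR called 4.48% of 14486 genes, 1 member had an unadjusted p under 0.05, as did 20.7% of all genes, and DESeq2 called 0 members and 7.32% of all genes.

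Between mice of the same time point the members varied widely and together. The SD of log2 CPM about the time-point means had a median of 0.65 over the members, against 0.20 over all genes tested, and ranged from 0.35 (Srebf1) to 0.82 (Acly). Among the genes at least as abundant as the least abundant member the median was 0.15. The members' median SD was 0.98 at ZT6, 0.85 at ZT9 and 0.80 at ZT15, and between 0.27 and 0.45 at the other time points.

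The same mouse tended to be lowest throughout. Replicate 4 of ZT0, 4 of ZT6, 1 of ZT15 and 4 of ZT18 were each the lowest mouse of their time point in 10 of 10 members, replicate 2 of ZT3 in 9 and replicate 3 of ZT9 in 8. Replicate 3 of ZT0 and 1 of ZT12 were the highest in 10 of 10.

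**Figure D3:**
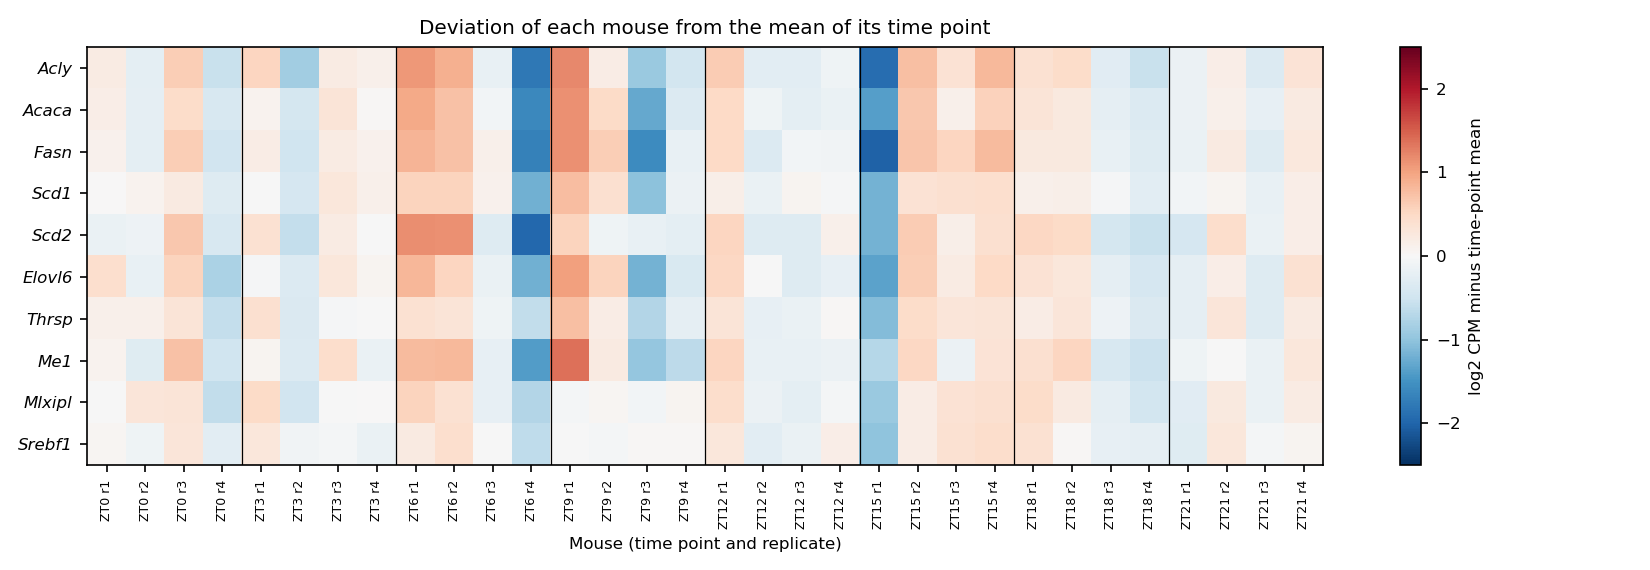
Deviation of each mouse from the mean of its time point (log2 CPM, colour) for the 10 members (rows) and 32 mice (columns, grouped by time point). Replicate 1 of ZT15, replicate 4 of ZT6 and replicate 3 of ZT9 were the lowest mice of their time points in 10, 10 and 8 members, and Srebf1 and Mlxipl differed little between the mice of ZT9.

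All 45 pairs of members correlated positively across the 32 mice in these deviations, with r from 0.61 to 0.98 (median 0.86) and rho from 0.62 to 0.98, and each pair passed a permutation test (mice permuted within time points, 100000 resamples, two-sided, BH over 45 pairs). Relations of this kind were common among abundant genes. At an unadjusted permutation p under 0.05, 16% of all gene-by-member pairs tested were positively related (12.6% to 18.4% of 15504 genes by member, 10000 resamples), and 50.9% to 62.7% of the 161 other genes at least as abundant as the least abundant member were, members included. The median r with a member was between -0.07 and -0.04 over all genes tested and between 0.39 and 0.58 over the abundant ones. Fasn and Scd1 were closest by Pearson's r, with r = 0.98 (permutation p = 1e-05, the smallest the resamples can give, adjusted p = 1.3e-05) and rho = 0.96 (permutation p = 1e-05), while Acaca and Elovl6 had the highest rho (0.98) and the highest r without the 2 farthest mice (0.97). Without the 2 mice farthest from the median of Fasn, r was 0.96. The separate lanes 2, 3 and 4 gave r of 0.97, 0.99 and 0.95 (p = 0.00123, 0.000362 and 0.00347 by exact permutation).

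Me1 and Srebf1 were the least related pair by Pearson's r, with r = 0.61 (permutation p = 0.00018, adjusted p = 0.000193) and rho = 0.65 (permutation p = 0.00012), while the lowest rho was 0.62 for Scd1 with Srebf1. Without the 2 mice farthest from the median of Me1, r was 0.62. The separate lanes 2, 3 and 4 gave r of 0.90, 0.38 and 0.65 (p = 0.00326, 0.104 and 0.122 by exact permutation). The 2 regulators, Mlxipl and Srebf1, had r = 0.89 with each other (permutation p = 1e-05, adjusted p = 1.3e-05) and rho = 0.86, with 0.84, 0.96 and 0.91 within lanes and 0.80 without the 2 farthest mice. Over the 45 pairs the sign was positive within each lane, and without the 2 farthest mice r ranged from 0.26 (Scd1 with Srebf1, permutation p = 0.0377) to 0.97.

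Angptl4, an inhibitor of lipoprotein lipase, and Pck1, which makes glycerol precursors in fat, are both raised by fasting. The 10 members were negatively related to both among mice of the same time point, and 19 of these 20 relations passed (permutation test as above, BH over 20). At an unadjusted permutation p under 0.05, 10 members were negatively related to Angptl4 and 9 to Pck1, against 8.29% and 7.52% of all 15504 other genes tested. Among genes at least as abundant as the least abundant member, members included, 40.7% of 162 were negatively related to Angptl4 and 29.8% of 161 to Pck1. Srebf1 was the most strongly related to Angptl4, with r = -0.71 (permutation p = 6e-05, adjusted p = 6e-04) and rho = -0.72 (permutation p = 0.00016). Without the 2 mice farthest from the median of Srebf1, r was -0.65. The separate lanes gave r of -0.61, -0.75 and -0.79 (p = 0.0249, 0.0396 and 0.0330 by exact permutation). On lane 3 it was the 1 member of 10 with an unadjusted exact p under 0.05 for Angptl4, and also for Pck1, and over all members p ran up to 0.558 and 0.734 there. On lane 2, 8 members had such a p for Angptl4 and 6 for Pck1, and on lane 4, 10 and 5. Scd1 with Pck1 was the relation that did not pass, with r = -0.30 (permutation p = 0.0648), although it passed by rho (-0.38, permutation p = 0.0308, adjusted p = 0.0309), as did the other 19.

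The number of these relations that passed moved with the libraries left out, while the sign did not change when any single library was left out. Without the 8 libraries with muscle transcripts none of the 20 passed by the permutation test, 4 had an unadjusted p under 0.05, 19 remained negative, and the median r moved from -0.49 to -0.23. The 24 libraries kept still held muscle markers at up to 1906 CPM. Without replicate 1 of ZT15 alone 6 passed at a median r of -0.39, without replicate 4 of ZT6 11 passed at -0.50, and without replicate 3 of ZT0 12 passed at -0.46. Without the 2 mice farthest from the median of each member, 5 of the 10 relations with Angptl4 and 4 of the 10 with Pck1 had an unadjusted permutation p under 0.05.

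**Figure D4:**
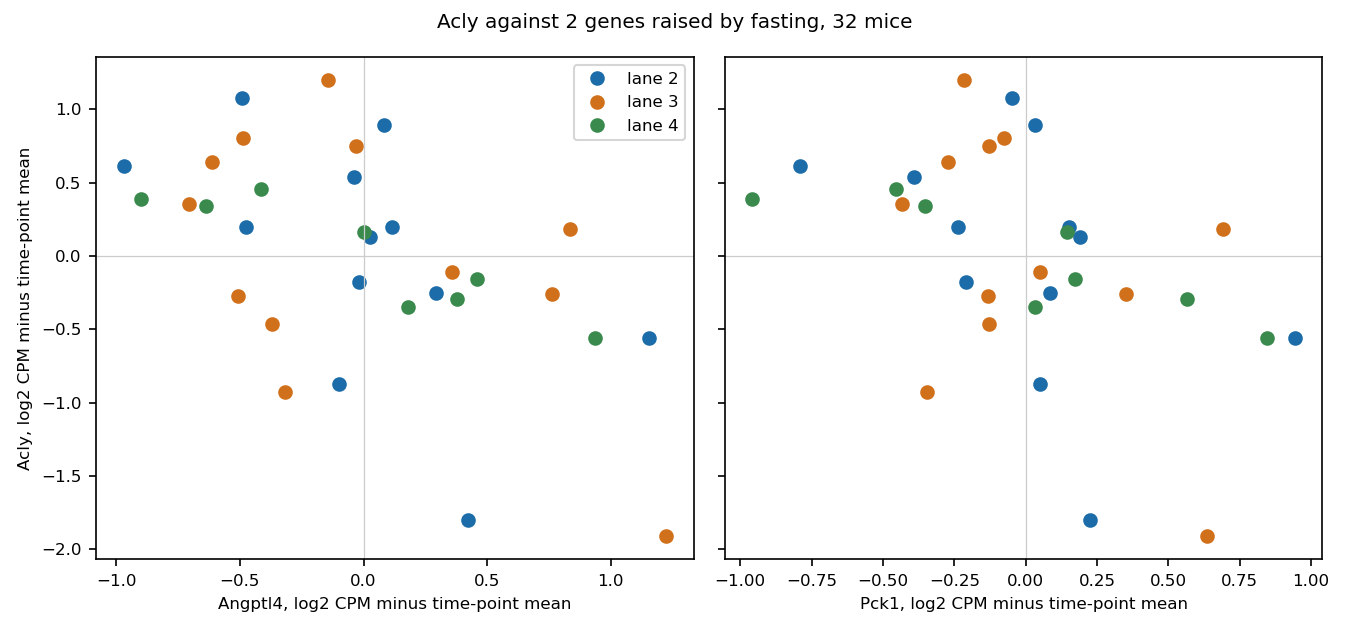
Acly against Angptl4 (left) and Pck1 (right) as deviations from the time-point mean (log2 CPM on both axes), 1 point per mouse coloured by lane, 32 mice. Both clouds slope downward (r = -0.55 with Angptl4 and -0.47 with Pck1), and within lanes 2, 3 and 4 r was -0.54, -0.50 and -0.92 with Angptl4 (exact permutation p = 0.0213, 0.193 and 0.0156) and -0.45, -0.44 and -0.87 with Pck1 (0.0281, 0.264 and 0.0538).

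The marker sums of the mice that were lowest are given beside these results, and their part in them was not tested. Of the 6 lowest mice, 5 had the highest macrophage sum of their time point and 5 the highest lymphoid sum, 3 each had the highest muscle, white adipocyte and red blood cell sums, 2 each had the highest endothelial, Schwann cell and brown adipocyte sums, and 3 had the lowest brown adipocyte sum. Endothelial markers were at 864 CPM in replicate 4 of ZT0, 770 in replicate 2 of ZT3 (the lowest of its time point), 878 in replicate 4 of ZT6 and 746 in replicate 1 of ZT15 (both the highest), 711 in replicate 3 of ZT9 and 712 in replicate 4 of ZT18. Also, 4 of these mice were among the 8 libraries with muscle transcripts. Replicate 2 of ZT3 had muscle markers at 5740 CPM, the highest of all libraries, replicate 4 of ZT18 at 4136 CPM and replicate 4 of ZT0 at 2255 CPM. Of the mice that were highest, replicate 3 of ZT0 had them at 4126 CPM and replicate 1 of ZT12 at 191 CPM. Replicate 1 of ZT15 had muscle markers at 5666 CPM, where its time point ran from 558 to 5666, and brown adipocyte markers at 10563 CPM, the lowest of all libraries. Its white adipocyte markers (3 of 4 in the table) were at 414 CPM, the highest of all libraries. That sum differed by time, from 209 to 414 CPM at ZT15 and from 46.0 to 77.6 CPM at ZT6. It includes Lep and Nnat, which the paper lists among its genes of largest relative amplitude. Replicate 4 of ZT6 had muscle markers at 3.90 CPM and brown adipocyte markers at 15566 CPM and lymphoid markers at 6.13 CPM, both the highest of its time point. Replicate 3 of ZT9 had muscle markers at 24.2 CPM, and macrophage markers (6 of 6 in the table) at 278 CPM and red blood cell markers (5 of 5) at 1137 CPM, both the highest of all libraries. Its white adipocyte (319 CPM), lymphoid (5.87 CPM) and Schwann cell (260.2 CPM) sums were the highest of its time point and its brown adipocyte sum (12062 CPM) the lowest.

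As a description over the 32 mice, the mean standardized deviation of the members had r = -0.60 with the summed endothelial markers (4 of 4 in the table, 578 to 892 CPM), -0.48 with lymphoid (6 of 6, 1.67 to 6.32 CPM), -0.38 with macrophage (44.0 to 278 CPM), -0.28 with white adipocyte and 0.22 with brown adipocyte markers, of which 5 of 11 had a negative r (lowest Cpt1b at -0.45) and 6 a positive one (highest Plin1 at 0.42). It had r = -0.16 with muscle, -0.10 with Schwann cell (5 of 5) and -0.04 with red blood cell markers. These sums and the members share library and scaling.

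Outside the members, the genes whose deviations were most like that mean, of 10290 genes with at least 5 CPM, were Pygl (r = 0.97), the citrate carrier Slc25a1 (0.97), the fructose transporter Slc2a5 (0.97), the sterol synthesis enzymes Lss (0.97) and Pmvk (0.97), the NADPH-producing Pgd (0.96), Tmem120b (0.96) and the acetyl-CoA synthetase Acss2 (0.96). The most opposite were Rgcc (r = -0.87), Kansl1l (-0.86), Blcap (-0.86) and Lix1l (-0.85). These are descriptions over 32 mice.

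Genes around the pathway were taken from lists, and their counts stand against 39.8% of all tested genes for a difference between time points, 36.1% for a cosine and 17.2% for one beside lane. Values printed by gene are for the cosine without lane unless another test is stated, and the named genes need not have one beside lane. Apart from the fasting genes, those that had one beside lane are not named. Of 12 tested genes of substrate supply (13 listed; Pklr, of liver pyruvate kinase, had at most 1 count), 3 differed between time points, 6 had a cosine and 3 had one beside lane (25%, 50% and 25%). Hk2, which phosphorylates glucose, had an amplitude of 0.65 ± 0.12 with a peak at ZT18.2 (edgeR adjusted p = 0.00021), the insulin-sensitive glucose transporter Slc2a4 0.27 ± 0.07 at ZT18.3 (0.00706), and Acss2 0.68 ± 0.16 at ZT22.4 (0.0109). Fructokinase Khk (0.00933) and Aldoa (0.0166) passed with amplitudes of 0.12 and 0.28.

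Of the 3 genes raised by fasting, Angptl4 and Pdk4 differed between time points and had a cosine, with amplitudes of 0.89 ± 0.18 at ZT2.19 (edgeR adjusted p = 0.000979) and 0.66 ± 0.17 at ZT2.85 (0.0038), and Pck1 passed neither test (0.0722 and 0.137). Beside lane Pdk4 and Pck1 had a cosine and Angptl4 did not (0.123).

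Of 8 genes of NADPH supply, 2 differed between time points, 2 had a cosine and 2 had one beside lane (25% in each). H6pd, of the pentose phosphate route in the endoplasmic reticulum, had an amplitude of 0.34 ± 0.04 at ZT13.5 (edgeR adjusted p = 2.34e-06), and Pgd 0.53 ± 0.15 at ZT22.4 (0.0236). Me2 differed between time points (0.0349) without a cosine (0.103).

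Of 14 genes of elongation, desaturation and related steps, 6 differed between time points, 6 had a cosine and 3 had one beside lane (42.9%, 42.9% and 21.4%). Mid1ip1, a relative of Thrsp that activates acetyl-CoA carboxylase, had an amplitude of 0.72 ± 0.14 at ZT17.7 (edgeR adjusted p = 0.0005), Pnpla3, an SREBP-1 and ChREBP target, 0.62 ± 0.13 at ZT19.5 (0.000853), Aacs 0.61 ± 0.12 at ZT18.5 (0.000846), and the elongase Elovl5 0.57 ± 0.10 at ZT22.1 (0.000332). Scd4 passed both tests at a mean of 0.684 CPM, and Scd3 differed between time points (0.00605).

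Of 25 tested regulators (26 listed; Nr0b2 had no count), 13 differed between time points, 11 had a cosine and 6 had one beside lane (52%, 44% and 24%). Insig1, which retains SREBP precursors in the endoplasmic reticulum, peaked at ZT19.7 with an amplitude of 0.52 ± 0.13 (edgeR adjusted p = 0.00302), and Lpin1, a phosphatidate phosphatase and coregulator, at ZT17.1 with 0.41 ± 0.08 (0.000325). The kinases Akt1 (amplitude 0.29 at ZT10.8), Akt2 (0.17 at ZT8.65) and Prkaa1 (0.19 at ZT5.03) and the liver X receptor Nr1h2 (0.12 at ZT6.13) passed with peaks in the light phase. The median amplitude over the regulators was 0.12, and 0.26 over substrate supply, 0.18 over NADPH supply and 0.28 over elongation, against 0.14 over all genes tested. In the same order the median SD within time points, with which amplitudes grow, was 0.16, 0.31, 0.24 and 0.38, against 0.20.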

How the data were processed

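RNA of iBAT from 32 mice was sequenced by the authors as stranded paired-end libraries, mapped with GSNAP to mm10 and counted per Ensembl gene with HTSeq (0.6.1), per the labels and the submitters' processing notes. The deposited values are raw read counts. Whether the counting used strand is not given in the sources used here. Coordinates are those of GRCm38 (GENCODE), and 50376 identifiers had a symbol.

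Counts were filtered with filterByExpr by time point, scaled with TMM and tested with edgeR 4.0.16 (R 4.3.3) by its quasi-likelihood test, with BH adjustment over all 15505 genes. The fits tested 8 time points, a 24 h cosine, the same beside lane, time points within a lane, and 4 contrasts 12 h apart. JTK was an own implementation on CPM, with 15 templates. Amplitudes, peaks and deviations used log2 CPM with a prior count of 2. Alternatives were DESeq2 1.42.0, other scaling, no filter, removal of mitochondrial genes, removal of libraries with muscle transcripts, a replicate block and leaving out each library. Lanes and replicate numbers were read from the library labels; nothing used here says that they pair mice across times.

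Total counts per library were 16300770 to 18254659, so counting error is small for the members. Each of the 48 library pairs from one time point differed by a mean chi-square of at least 7.97 per gene, more than counting noise, and none was treated as a duplicate. The count tests were tested on simulated data with 200 changed genes: the time-point test recovered 67% of genes with an amplitude of 0.5 and 95% with 1 over 15501 genes, the cosine test 77% and 97%, and JTK (P under 0.05) 89% and 98% over 15505. Of unchanged genes these tests called 0.0457%, 0.0588% and 1.59%. The changed genes were drawn from all genes tested, where the median SD within time points was 0.20, against 0.65 for the members. Recovery at the spread of the members was not measured, so these shares do not give the power for them.

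The members, lists and tests were chosen with earlier results of these data known. All 10 members were named; list genes were named if past the time-point or cosine test, at most the 6 of lowest p per list; genes of like pattern were the 8 highest and 4 lowest by r. The values of 1 list gene are not reported here.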

Additional observations from a re-analysis of the deposited data

Results flagged for a closer look

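Within the 4 mice of a time point, the gap between an extreme mouse and its nearest neighbour was divided by the range of the 4, for 10 members at 8 time points. Of these 80 groups, 6 exceeded Dixon's 95% critical value for 4 samples, and chance flags about 1 in 20 groups. Replicate 1 of ZT12 was far above the others in Acly (ratio 0.864, 3177 CPM against 1686 to 1889), Acaca (0.855, 2128 CPM against 1273 to 1397) and Me1 (0.96, 545 CPM against 329 to 338). Replicate 1 of ZT15 was far below the others in Scd1 (0.932, 14810 CPM against 42964 to 45033) and Thrsp (0.858, 1238 CPM against 3244 to 3575). Replicate 1 of ZT9 was far above the others in Scd2 (0.869, 292 CPM against 168 to 184).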

How the results depend on the processing

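The numbers of members that differed between time points (4, range 3 to 4 over 7 alternatives and 3 to 6 without single libraries), had a cosine (6, 5 to 7 and 5 to 7) or had one beside lane (3, 2 to 3 and 2 to 4) stayed within 1.5 times under every alternative run. Within lanes, where edgeR called 0, lane 2 gave 2 by DESeq2, 1 with the replicate block and 0 to 2 without single libraries; lane 3 gave 2 by DESeq2 and 0 to 3; lane 4 gave 0 throughout. ZT12 against ZT0 gave 3 members, 1 with no filter, 0 without the muscle libraries and 0 to 3 without single libraries. ZT15 against ZT3 gave 1, and 0 with its 8 libraries alone and 0 to 1 without single libraries. ZT18 against ZT6 gave 1, 2 without the muscle libraries, 0 with its 8 libraries alone and 0 to 1 without single libraries. ZT21 against ZT9 gave 2, and 1 to 3 without single libraries. JTK gave 7 members, 4 after BH adjustment and 5 to 7 without single libraries. Relations between member pairs passed in 45, and in 44 to 45 elsewhere; those with Angptl4 and Pck1 passed in 19, in 0 without the muscle libraries and in 6 to 20 without single libraries. The median within-time SD was 0.65, and 0.56 to 0.67 without single libraries. No called contrast of a member changed direction. The cause of these changes was not tested, and the muscle alternative also has 8 fewer libraries. It keeps others with muscle markers at up to 1906 CPM.

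JTK_CYCLE was implemented for this work. After the data were seen, 8 forms of its null were compared (from template ties or from 8 groups of 4, template rounded or not, one- or two-sided), since the number of genes called did not equal an earlier count made from the same table. None equalled it, and the form written first, which called 5641 genes, was kept. The 8 forms called 5017 to 6426 genes at P under 0.05 and 3461 to 4883 after BH adjustment. All 8 called 7 members at P under 0.05, and after adjustment the 4 two-sided forms called 4 and the 4 one-sided forms 5 or 6.

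Libraries with the same replicate number were not more alike. Of 112 same-numbered pairs of libraries from different time points, 49 had a correlation of deviations over 0.1. Their median was -0.12 (range -0.73 to 0.77), against 0.07 for differently numbered pairs. These correlations cannot exclude a factor shared by mice of the same number. With the replicate block, 4 members differed between time points, 7 had a cosine, 3 had one beside lane and 2 differed between ZT12 and ZT0.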
